A study of Mus musculus with 12 samples.

Results

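Small leucine-rich proteoglycans were followed in mouse lung through 8 genes: Bgn (biglycan), Dcn (decorin), Aspn (asporin), Lum (lumican), Fmod (fibromodulin), Prelp (proline- and arginine-rich end leucine-rich repeat protein), Ogn (osteoglycin, also called mimecan) and Podn (podocan). They were picked from the deposited expression table by gene symbol alone and made up 8 of its 35599 genes. All 8 passed the filter on low values. The study examined a liposome aimed at integrins and CD44 in a mouse model of acute exacerbation of pulmonary fibrosis, and 4 lung samples from each of 3 groups were sequenced as polyadenylated RNA. Control mice received saline. AE-PF mice received bleomycin, a drug that scars the lung, together with lipopolysaccharide (LPS), an inflammatory component of bacterial walls, and no treatment. ND-RHL mice received the same bleomycin and LPS, then liposomes holding nintedanib, which blocks growth factor receptor kinases, and dexamethasone, a glucocorticoid, with hyaluronic acid and RGD peptides on their surface. Strain, age, doses and days are not given in the sources used here, and ND-RHL differed from AE-PF by drugs, carrier and surface ligands at once. Nothing in the labels states that the 4 samples of a group came from separate mice, so p-values here rest on the spread among these samples, and some of that spread may be technical.

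Small leucine-rich proteoglycans are secreted proteins of the extracellular matrix whose curved leucine-rich repeats bind collagen fibrils and set how the fibrils assemble, how thick they grow and how they are spaced. Most carry glycosaminoglycan chains: biglycan and decorin bear chondroitin or dermatan sulfate, and lumican and fibromodulin can bear keratan sulfate. Fibroblasts and smooth muscle cells make much of the lung's supply, and several members also bind growth factors of the TGF-beta family or innate immune receptors.

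Expression was given as FPKM, fragments counted to a gene divided by its exon length and by the library's total, a scale on which genes of different length can be compared. The libraries held 16152379 to 21667129 counted fragments, and each value of the 8 genes rested on 189 to 50534 fragments. Lung markers (9 of 9 at an FPKM of at least 1) summed to 40000 to 55500 FPKM in saline, 6480 to 11200 in AE-PF and 19400 to 39800 in ND-RHL lung. Transcripts of other tissues differed between libraries. AE-PF library 2 and ND-RHL library 4 held squamous epithelium transcripts, with the mucosal keratin gene Krt13 at 899 and 2950 FPKM and at most 0.271 in the other 10 libraries. Saline libraries 1 and 4 and ND-RHL libraries 1 and 4 held the most adipocyte and cartilage transcripts of their groups. Member results whose call or value moved most with these libraries are also given without them. Over all 15164 genes tested, 4003 were higher and 4575 lower in AE-PF than in saline lung, and for ND-RHL against AE-PF 3686 were higher and 2646 lower. Scaling the libraries to equal FPKM totals moved the median log2 change of all genes in the first comparison from -0.03 to 0.08, and the split to 5376 higher and 3163 lower. In the comparison of ND-RHL with AE-PF, that scaling moved the median from 0.06 to -0.04 and the split to 2359 higher and 3874 lower.

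Several of the 8 genes are neighbours in the mouse genome (GENCODE M21, build GRCm38). Dcn (ENSMUSG00000019929, chr10:97479609-97518143) and Lum (ENSMUSG00000036446, chr10:97565128-97572703) lie 47.0 kb apart on the plus strand. Aspn (ENSMUSG00000021388, chr13:49544443-49567565) and Ogn (ENSMUSG00000021390, chr13:49608046-49624501) lie 40.5 kb apart, also on the plus strand. Prelp (ENSMUSG00000041577, chr1:133910304-133921414, minus strand) and Fmod (ENSMUSG00000041559, chr1:134037254-134048277, plus strand) are separated by 115.8 kb. Bgn (ENSMUSG00000031375, chrX:73483602-73495933, plus strand) and Podn (ENSMUSG00000028600, chr4:108014791-108096445, minus strand) stand alone. All 8 are protein-coding, and fragments were counted over their exons, 3 exon blocks in Lum, Fmod and Prelp, 7 in Bgn and Ogn, 8 in Aspn, 9 in Dcn and 15 in Podn. Prelp shares 350 exon bases with Gm15851, an antisense gene that held 0 to 3 fragments in each library. Aspn shares 7 exon bases with Cenpp on the opposite strand, which held 6 to 32 fragments.

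The promoters of 4 members are shown as examples of both directions of change: Bgn and Fmod were higher in AE-PF lung, and Ogn and Prelp were lower. Each is the RefSeq window (build GRCm38.p6) from 250 bases before to 50 bases after a transcription start, read 5′ to 3′ on the gene's strand. Capitals mark matches, on either strand, to any of 6 motifs. Injury and growth factor signalling were represented by TGANTCA for the factor AP-1, by CAGAC for the SMAD proteins that carry TGF-beta signals, and by GGAATG for the TEAD factors of the Hippo pathway. The general promoter elements were GGGCGG, known as the GC box, and TATAAA, known as the TATA box. For the receptor that dexamethasone engages the core motif AGAACA was searched, called the glucocorticoid motif below. The windows are chrX:73483351-73483650 (plus strand) for Bgn, chr1:134037004-134037303 (plus strand) for Fmod, chr13:49607765-49608064 (plus strand) for Ogn and chr1:133921352-133921651 (minus strand) for Prelp.
Bgn: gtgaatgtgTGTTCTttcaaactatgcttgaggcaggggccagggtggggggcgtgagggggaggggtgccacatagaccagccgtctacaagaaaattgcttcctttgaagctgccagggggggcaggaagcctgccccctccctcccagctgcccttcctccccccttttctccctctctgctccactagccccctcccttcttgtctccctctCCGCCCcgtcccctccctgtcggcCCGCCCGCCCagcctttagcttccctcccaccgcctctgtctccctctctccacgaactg
Fmod: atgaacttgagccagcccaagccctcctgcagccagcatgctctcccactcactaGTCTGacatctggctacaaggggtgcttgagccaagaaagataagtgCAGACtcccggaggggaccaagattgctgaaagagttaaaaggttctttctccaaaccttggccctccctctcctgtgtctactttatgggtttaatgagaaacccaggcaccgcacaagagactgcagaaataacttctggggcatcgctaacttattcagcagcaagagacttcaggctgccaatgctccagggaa
Ogn: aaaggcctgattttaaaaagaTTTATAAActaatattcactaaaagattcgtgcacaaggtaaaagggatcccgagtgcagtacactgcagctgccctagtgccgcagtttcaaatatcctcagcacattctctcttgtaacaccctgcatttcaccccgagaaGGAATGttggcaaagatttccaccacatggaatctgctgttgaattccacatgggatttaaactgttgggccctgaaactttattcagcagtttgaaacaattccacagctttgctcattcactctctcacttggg
Prelp: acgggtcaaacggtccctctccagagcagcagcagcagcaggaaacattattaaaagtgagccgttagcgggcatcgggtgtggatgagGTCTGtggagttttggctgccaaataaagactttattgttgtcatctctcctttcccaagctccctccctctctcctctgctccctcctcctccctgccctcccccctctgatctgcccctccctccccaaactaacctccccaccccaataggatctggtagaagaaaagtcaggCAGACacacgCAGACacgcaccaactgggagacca

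The Bgn window was the richest of these in G and C, at 63.7%, against a median of 52.7% over all 32851 promoter windows of the table. It held 3 GC boxes, at positions 217, 241 and 245 counted from the window's first base, the last 2 overlapping each other, and 1 glucocorticoid motif at position 10. A GC box was present in 35.7% of all windows and a glucocorticoid motif in 19.0%. Fmod (51.0% G and C) held 2 SMAD motifs, at positions 56 and 103, and Prelp (55.3%) held 3, at positions 90, 266 and 276. That short motif occurred in 49.6% of all windows, and here it occurred both in a gene that was higher and in a gene that was lower in AE-PF lung. Ogn had the lowest G and C content of the 4, 42.3%, and held a pair of overlapping TATA boxes at positions 22 and 24, far from the start, and 1 TEAD motif at position 165. The final bases of the Ogn window were not found in a GENCODE transcript of the gene, unlike those of Bgn, Fmod and Prelp. GENCODE places the Ogn start further downstream, at chr13:49608046. A TATA box was found in 13.6% of all windows and a TEAD motif in 14.7%. The AP-1 motif, found in 7.81% of all windows, was in none of the windows of the 6 members matched in the table (Aspn, Bgn, Fmod, Ogn, Podn with 2 windows, and Prelp). These matches describe the letters of the windows, and no binding was measured.

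In saline lung, Ogn and Bgn were the most abundant of the 8 per length, followed by Prelp and Dcn. Their mean levels were 172 ± 6.88 FPKM for Ogn, 155 ± 10.8 for Bgn, 131 ± 9.20 for Prelp and 56.1 ± 10.8 for Dcn (SD, n = 4), and the ranges of the 4 libraries did not overlap between neighbours in this order. Aspn (11.7 ± 2.00), Podn (11.0 ± 1.34), Lum (9.27 ± 4.33) and Fmod (3.84 ± 1.23) formed a lower tier in which each gene's range overlapped the next. In AE-PF lung the order was Bgn, Prelp, Ogn, Dcn, Fmod, Podn, Lum and Aspn. Bgn stood alone at the top, the ranges of Prelp, Ogn, Dcn and Fmod overlapped in turn, and those of Podn, Lum and Aspn formed the lower tier. In ND-RHL lung the order was Bgn, Ogn, Prelp, Dcn, Aspn, Lum, Podn and Fmod, where Bgn, Ogn and Prelp overlapped in turn, Dcn stood apart from both neighbours, and the last 4 overlapped. The plot of every library's level shows these tiers gene by gene.

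**Figure D1:**
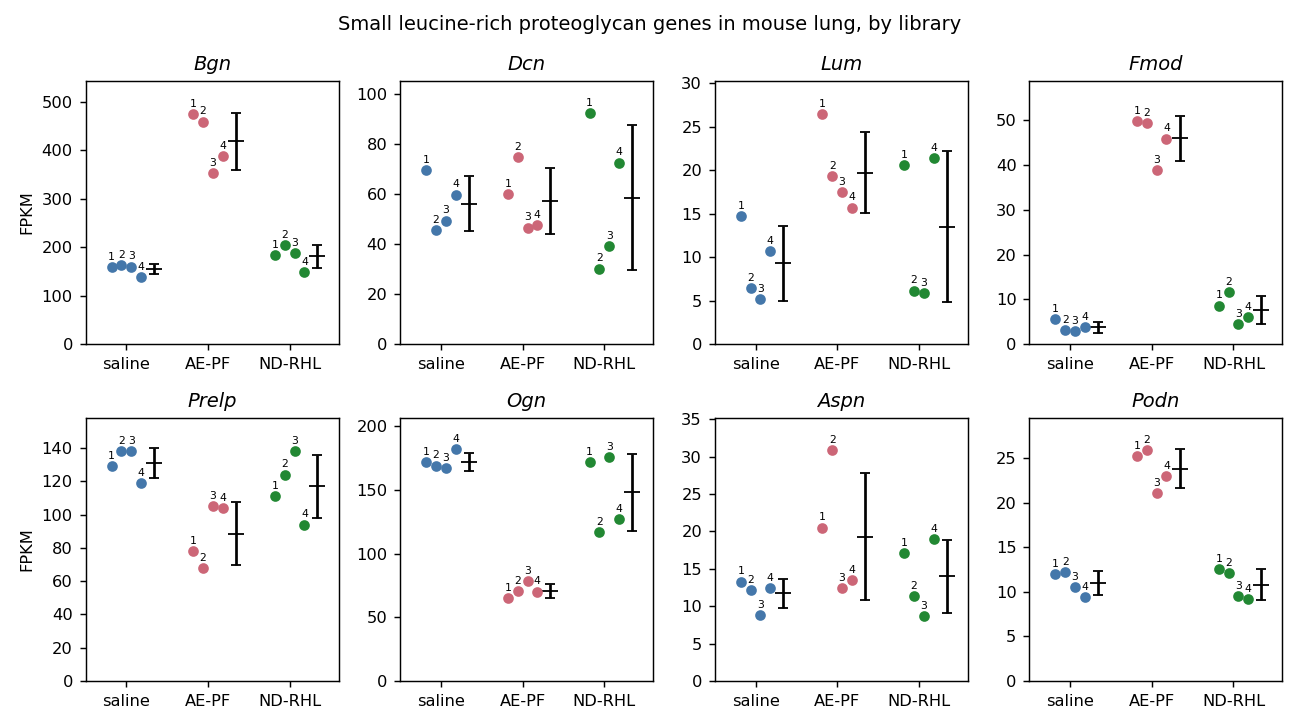
FPKM (vertical axis, from 0, a separate scale for each gene) of the 8 proteoglycan genes in each library, with 4 libraries for each of saline, AE-PF and ND-RHL. Points are libraries with their number, bars are the mean ± SD. Fmod, Bgn and Podn are higher in all 4 AE-PF libraries than in any other, Ogn is lower in all 4, and Dcn overlaps across all 3 groups.

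The first comparison, AE-PF against saline, asked what the bleomycin and LPS challenge changed. The set did not move as a block: Fmod, Bgn, Podn and Lum were higher in AE-PF lung, Ogn and Prelp were lower, and neither Aspn nor Dcn passed the test. Fmod changed most, from 3.84 ± 1.23 to 46.0 ± 5.02 FPKM, and Ogn fell from 172 ± 6.88 to 70.9 ± 5.45. The call was an adjusted p under 0.05 from limma on log2(FPKM + 1), Benjamini-Hochberg adjusted over all genes tested, and 26.4% of all genes were called higher and 30.2% lower. For the 8 genes, 4 were higher and 2 lower, with a median log2 change of 0.83 against -0.03 for all genes. The ranges of the 2 groups did not overlap for 6 of the 8, against 54.3% of all genes tested.

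Biglycan, a collagen-binding proteoglycan that can also engage Toll-like receptors once released from the matrix, was the most abundant member in challenged lung. Bgn stood at 159, 163, 160.0 and 139 FPKM in saline libraries 1 to 4 and at 475, 459, 352 and 387 in AE-PF libraries 1 to 4. Every AE-PF library held more Bgn than every saline library, and AE-PF libraries 1 and 2 held the most. The mean rose from 155 ± 10.8 to 418 ± 58.3 FPKM (SD, n = 4), 2.67-fold, a log2 change of 1.42 ± 0.12 (SE, limma adjusted p = 4.8e-06).

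Decorin, the close relative of biglycan that coats collagen fibrils and can bind TGF-beta, showed no such difference. Dcn stood at 69.6, 45.6, 49.3 and 59.7 FPKM in saline and at 59.9, 74.6, 46.5 and 47.4 in AE-PF lung. The groups overlapped almost completely. The log2 change was 0.02 with a 95% interval from -0.66 to 0.70 (limma adjusted p = 0.964), so a change of up to about that size in either direction was not resolved. The libraries with the most Dcn in each group were also those with most transcripts of other tissues: in saline, libraries 1 and 4 held the 2 highest adipocyte sums (715 and 540 FPKM over 8 markers, against 188 and 130), and in AE-PF, library 2 held the squamous and skeletal muscle transcripts. Without saline libraries 1 and 4 and ND-RHL libraries 1 and 4, a choice made after the values were seen, the log2 change was 0.24 (limma adjusted p = 0.375), and without the squamous libraries, AE-PF 2 and ND-RHL 4, it was -0.12 (adjusted p = 0.774). Adipocyte sums in AE-PF lung were 5.19 to 33.3 FPKM, below every saline library. The groups therefore still differed in adipocyte transcripts in these fits, and the part of that difference in the Dcn result was not tested.

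Asporin, a member that carries a stretch of aspartic acid residues and usually no glycosaminoglycan chain, was spread widely within AE-PF lung. Aspn stood at 13.3, 12.2, 8.77 and 12.4 FPKM in saline and at 20.5, 30.9, 12.4 and 13.5 in AE-PF lung. AE-PF libraries 1 and 2 lay above all saline libraries, and AE-PF libraries 3 and 4 lay within or just above the saline range. The log2 change of 0.61 (95% interval -0.03 to 1.25) did not pass (limma adjusted p = 0.0959). It passed without AE-PF library 3 (0.78, adjusted p = 0.0471) and with libraries scaled to equal totals (0.73, adjusted p = 0.0472). Without AE-PF library 2, the squamous library with the highest Aspn, it was 0.36 (adjusted p = 0.258), and with ND-RHL library 4 also left out it was 0.36 (adjusted p = 0.208).

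Fibromodulin and lumican share a binding region on collagen, and fibromodulin also steers the cross-linking of collagen by lysyl oxidase. Fmod stood at 5.58, 3.08, 2.90 and 3.81 FPKM in saline and at 49.8, 49.4, 38.9 and 45.9 in AE-PF lung. The lowest AE-PF library (38.9) was far above the highest saline library (5.58). Fmod rose by a log2 change of 3.30 ± 0.24 (SE), 9.87-fold, with a limma adjusted p of 2.25e-06. Transcripts on the list for tendon and dense connective tissue, where fibromodulin is abundant, moved in the same libraries, summing to 8.27 to 9.34 FPKM in saline and 50.2 to 68.9 in AE-PF lung over 6 markers. Within that list the sum came from Thbs4 (0.263 to 1.5 in saline, 26.5 to 38.0 in AE-PF) and Cilp (2.66 to 3.32 and 19.2 to 33.2). Tnmd and Kera, which mark tendon and cornea most specifically, stayed at or below 0.0798 and 0.0607 FPKM in both groups, and Scx was lower in AE-PF lung (log2 change -0.29, limma adjusted p = 0.0314).

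Lumican, the keratan sulfate proteoglycan first known from the cornea, was higher by a narrower margin. Lum stood at 14.7, 6.46, 5.19 and 10.7 FPKM in saline and at 26.4, 19.3, 17.5 and 15.7 in AE-PF lung. The groups did not overlap, but saline library 1 came within about 1 FPKM of AE-PF library 4. Lum rose by a log2 change of 1.08 ± 0.43 (SE), 2.12-fold, with a limma adjusted p of 0.0495. That call was lost with a pseudocount of 0.1 (adjusted p = 0.0504), with quantile normalisation (0.0529), without the squamous libraries, AE-PF 2 and ND-RHL 4 (0.0598), with no filter (0.0995), and when saline library 2, 3 or 4 or any AE-PF library was left out (up to 0.132). Without the 4 libraries rich in adipocyte and cartilage transcripts, a choice made after the values were seen, the log2 change was 1.58 (limma adjusted p = 0.00122). The saline libraries left out, 1 and 4, were those with the most Lum (14.7 and 10.7 FPKM). A larger change followed from their removal, so this fit adds no support to the call.

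Prelp encodes a member that binds heparan sulfate and is thought to anchor basement membranes to the underlying collagen. It stood at 129, 138, 138 and 119 FPKM in saline and at 78.0, 67.7, 105 and 104 in AE-PF lung. All AE-PF libraries were below all saline libraries, with libraries 1 and 2 the lowest. Its log2 change was -0.58 ± 0.15 (SE), 1.5-fold lower, with a limma adjusted p of 0.00675. Osteoglycin, a keratan sulfate proteoglycan of another subclass that regulates fibril diameter, fell further. Ogn stood at 172, 169, 167 and 182 FPKM in saline and at 64.8, 70.7, 78.1 and 70.2 in AE-PF lung. Both groups were narrow, and the gap between them (78.1 to 167) was wider than either group's range. Its log2 change was -1.27 ± 0.12 (SE), 2.42-fold lower (limma adjusted p = 1.18e-05).

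Podocan, a more distant member of the family, followed the direction of Bgn and Fmod. Podn stood at 12.0, 12.2, 10.5 and 9.41 FPKM in saline and at 25.2, 25.9, 21.1 and 23.0 in AE-PF lung. The groups did not overlap. Podn rose by a log2 change of 1.05 ± 0.11 (SE), 2.07-fold, with a limma adjusted p of 2.15e-05.

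Fibroblast markers moved beside both directions. Fibrotic fibroblast markers (9 genes, among them Cthrc1, Postn and Col1a1) summed to 217 to 267 FPKM in saline and 1010 to 1630 in AE-PF lung, where Fmod, Bgn, Podn and Lum were higher. Resident fibroblast markers (13 genes, among them Inmt, Pi16 and Dpt) summed to 1970 to 2220 in saline and 1020 to 1350 in AE-PF lung, where Ogn and Prelp were lower. Inmt alone stood at 867 to 1030 and 63.9 to 161 FPKM, so most of the fall in that sum was the fall of Inmt. The sum therefore does not show that the list fell as a whole, and Dpt overlapped between the groups at 115 to 124 and 108 to 139. Cardiac muscle markers, at 363 to 644 FPKM in saline, summed to 33.5 to 65.1 in AE-PF lung, and large airway gland markers went from 651 to 2390 down to 48.6 to 95.3. The part of any of these in the changes of the 8 genes was not tested, and in whole lung fewer cells of a type and less RNA per cell cannot be told apart.

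The collagens that these proteoglycans coat were higher almost throughout. Of 11 collagen genes tested from a list of 12, 10 were higher and none lower in AE-PF lung, with a median log2 change of 2.20. Col3a1, Col1a1 and Col5a2, with the smallest p, went from 93.0 ± 10.7 to 439 ± 102, from 71.2 ± 11.9 to 518 ± 175 and from 17.6 ± 1.32 to 136 ± 52.5 FPKM. Col14a1 was the exception, at 11.1 ± 1.25 and 13.3 ± 3.13 FPKM (limma adjusted p = 0.344). Genes that build chondroitin and dermatan sulfate chains were 13 higher and 5 lower of 21 tested (median 0.29), and the 5 became 1 with libraries scaled to equal totals. Chsy3, a chondroitin polymerase, rose from 0.374 ± 0.0268 to 3.01 ± 0.651 FPKM, Chpf2, its partner in polymerisation, from 4.56 ± 0.411 to 11.3 ± 2.22, and Dse, the epimerase that makes dermatan sulfate, from 8.48 ± 0.572 to 15.3 ± 1.20. The 5 lower genes, named here after their values were seen, were B3gat3, Fam20b, Csgalnact2, Chst3 and Chst7. Keratan sulfate genes were split, with B4galt1 (39.6 ± 2.63 to 77.3 ± 14.1 FPKM) and Chst5 higher, and Chst1, a keratan sulfotransferase (14.4 ± 1.54 to 6.23 ± 0.901), B4galt4 and Fut8 lower of 7 tested (median -0.26).

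Proteases that process or cut these proteoglycans were mostly higher: 8 of 12 tested rose, and Mmp9 alone fell (median 0.76). Adamts4, an aggrecanase that can cleave biglycan, rose from 1.02 ± 0.211 to 10.9 ± 1.88 FPKM, Mmp14, a membrane-bound collagenase, from 15.5 ± 1.19 to 88.7 ± 17.1, and Mmp13 from 0.398 ± 0.264 to 5.05 ± 1.4. Among receptors and ligands that members bind, 11 of 18 tested were higher and 5 lower (median 0.41). Tgfbr2, a TGF-beta receptor, rose from 45.4 ± 0.983 to 93.8 ± 9.63 FPKM and Ccn2, a connective tissue growth factor, from 37.4 ± 6.98 to 126 ± 33.8. Met, the hepatocyte growth factor receptor that decorin can bind, fell from 13.3 ± 0.925 to 3.79 ± 1.02 FPKM, and Igf1r, Kdr, Bmp2 and Bmp4 were the other lower genes. Among 10 further members of the wider family, 5 were tested. Chad (chondroadherin) fell from 34.3 ± 15.9 to 1.53 ± 0.685 FPKM, Ecm2 from 10.9 ± 1.22 to 3.87 ± 0.323 and Omd (osteomodulin) from 3.45 ± 2.14 to 0.516 ± 0.141, and Tsku (tsukushi) rose from 6.30 ± 0.601 to 12.1 ± 3.73. Podnl1 did not pass (0.629 ± 0.123 and 1.14 ± 0.440, limma adjusted p = 0.0565). Kera, Epyc, Optc, Chadl and Nyx were too low to test, with group means of at most 0.620 FPKM. Chad is a gene of cartilage, and cartilage markers (14 genes) summed to 13.4 to 135 FPKM in saline and 4.99 to 9.89 in AE-PF lung. The saline sums came mostly from Cytl1. Without Cytl1 the groups overlapped, with 3.41 to 9.26 in AE-PF lung, 1.85 in saline library 3 and 4.22 in saline library 2. Saline libraries 1 and 4 stayed higher, at 19.6 or more. The fall of this sum therefore does not show that the cartilage list fell as a whole.

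Other proteoglycans gave a mixed picture. Heparan sulfate proteoglycans were 7 higher of 10 tested, with Sdc2 the 1 lower gene (median 0.58). Hspg2 (perlecan) rose from 22.6 ± 2.18 to 41.9 ± 3.47 FPKM, Col18a1 from 12.7 ± 1.91 to 30.8 ± 4.4 and Gpc4 from 11.3 ± 0.518 to 20.5 ± 4.35. Of the large chondroitin sulfate proteoglycans and link proteins, 3 of 7 were tested. Vcan (versican), a provisional matrix proteoglycan, rose from 1.73 ± 0.361 to 8.26 ± 1.75 FPKM and Bcan (brevican) fell from 1.17 ± 0.147 to 0.178 ± 0.0794. Acan (aggrecan) did not pass, at 2.01 ± 2.30 and 0.0709 ± 0.0311 (limma adjusted p = 0.115).

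The second comparison, ND-RHL against AE-PF, asked what liposome treatment changed in challenged lung. Fmod, Bgn and Podn were lower in the treated lung, Ogn and Prelp were higher, and Lum, Aspn and Dcn did not pass the test. This comparison shares its AE-PF libraries with the first, and the changes are therefore not independent of those above. Of all genes, 24.3% were called higher and 17.4% lower, and of the 8 genes 2 were higher and 3 lower, with a median log2 change of -0.56 against 0.06 for all genes. With libraries scaled to equal totals, 1 of the 8 was higher and 3 were lower. The ranges of the 2 groups did not overlap for 4 of the 8, Bgn, Fmod, Ogn and Podn, against 36.8% of all genes tested.

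Bgn stood at 183, 204, 187 and 149 FPKM in ND-RHL libraries 1 to 4, all below the lowest AE-PF library (352). Its mean was 181 ± 23.2 FPKM, 2.31-fold lower than in AE-PF lung (log2 change -1.21 ± 0.12 SE, limma adjusted p = 4.56e-05). Fmod stood at 8.61, 11.7, 4.52 and 6.07 FPKM in ND-RHL lung. Library 2 was the highest of them, and all 4 lay below the lowest AE-PF library (38.9). The log2 change of Fmod was -2.49 ± 0.24 (SE), 5.63-fold lower, with a limma adjusted p of 4.04e-05. Podn stood at 12.5, 12.1, 9.50 and 9.17 FPKM, below every AE-PF library. It was 2.11-fold lower (log2 change -1.08 ± 0.11 SE, limma adjusted p = 6.38e-05).

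Ogn stood at 172, 117, 176 and 127 FPKM in ND-RHL lung. Libraries 1 and 3 lay within the saline range, libraries 2 and 4 lay between the saline and AE-PF ranges, and none overlapped AE-PF. For Ogn the log2 change was 1.03 ± 0.12 (SE), 2.04-fold higher, with a limma adjusted p of 0.000135. Prelp stood at 111, 124, 138 and 94.0 FPKM, and library 4 fell within the AE-PF range of 67.7 to 105. Its log2 change of 0.41 ± 0.15 (SE) had a limma adjusted p of 0.0496, and that call was lost under a replicate block (0.0574), with limma-voom (0.0602), with no filter (0.102), with only these groups in the fit (0.104), with equal totals (0.161) and in 9 of 12 fits that left out 1 library (up to 0.135).

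Dcn and Lum had their widest spread in ND-RHL lung, with a coefficient of variation of 49.4% and 64.2%, and Aspn had one of 34.7%. Dcn stood at 92.3, 30.2, 39.2 and 72.4 FPKM, a highest library 3.06 times the lowest, and the ND-RHL values reached above and below all of AE-PF. Lum stood at 20.6, 6.15, 5.85 and 21.4 FPKM, so that libraries 1 and 4 lay among the AE-PF values and libraries 2 and 3 near the lowest saline values. Aspn stood at 17.1, 11.3, 8.67 and 19.0 FPKM, with the same libraries high and low. Libraries 1 and 4 were also those with the most adipocyte transcripts (951 and 428 FPKM, against 24.7 and 108 in libraries 2 and 3) and cartilage transcripts (71.2 and 34.7, against 6.72 and 12.3). The cartilage sum came mostly from 1 gene, Cytl1, which gave 76.1% to 90.3% of it in each saline and ND-RHL library; without Cytl1 the sum was 16.4 and 8.29 in ND-RHL libraries 1 and 4 against 1.51 and 1.19, and at least 19.6 in saline libraries 1 and 4 against at most 4.22 in libraries 2 and 3.

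None of these 3 genes passed. The log2 change was -0.07 for Dcn (95% interval -0.76 to 0.61, limma adjusted p = 0.865), -0.71 for Lum (-1.66 to 0.23, adjusted p = 0.202) and -0.41 for Aspn (-1.05 to 0.23, adjusted p = 0.28). Without saline libraries 1 and 4 and ND-RHL libraries 1 and 4, the log2 change was -0.69 for Dcn (limma adjusted p = 0.0443). For Lum it was then -1.54 (adjusted p = 0.00438). Aspn stayed short of the threshold (-0.81, adjusted p = 0.12) and Prelp no longer passed (0.58, adjusted p = 0.0534). That fit left 2 libraries in the saline and ND-RHL groups and was chosen after the values had been seen. The ND-RHL libraries it left out were the highest of their group for Dcn, Lum and Aspn, and all AE-PF libraries were kept. More negative changes of these genes therefore followed from the removal, and the fit cannot show an effect of treatment on them. Leaving out the squamous libraries instead gave -0.08 for Dcn (limma adjusted p = 0.864), -1.0 for Lum (0.121), -0.32 for Aspn (0.328) and 0.39 for Prelp, which still passed (0.0324).

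**Figure D2:**
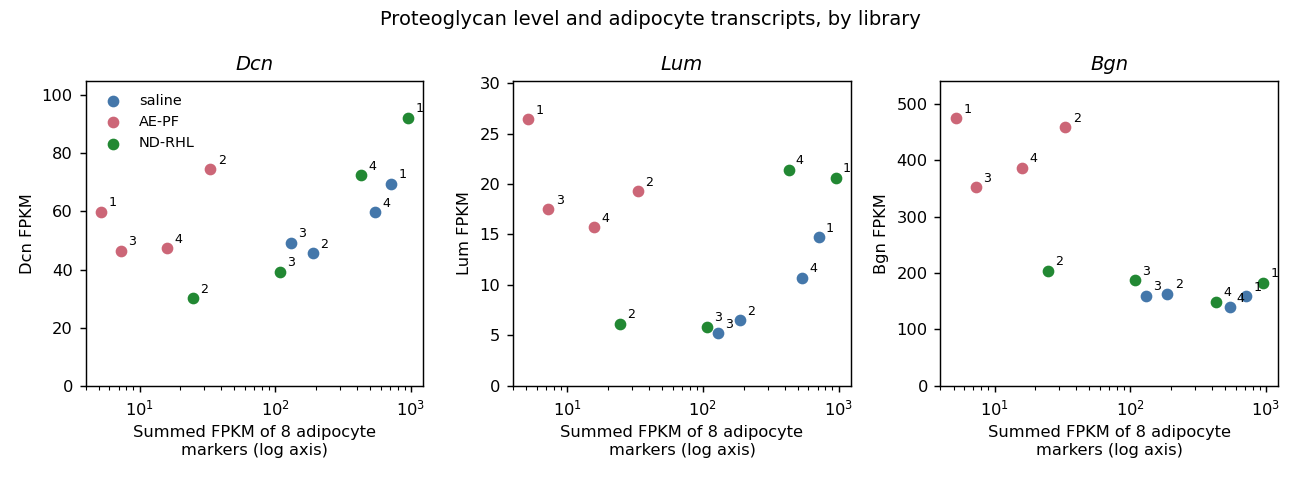
FPKM of Dcn, Lum and Bgn (vertical axes, from 0) against the summed FPKM of 8 adipocyte markers (horizontal log axis) in the 12 libraries, coloured by group and labelled by library number. Within saline and ND-RHL, the libraries numbered 1 and 4 hold the most adipocyte transcripts and the most Dcn and Lum, and Bgn separates AE-PF (352 and above) from the other groups (204 and below).

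Fibroblast marker sums lay nearer to saline than in AE-PF lung. Fibrotic fibroblast markers summed to 283 to 382 FPKM in ND-RHL lung, below the AE-PF range, and resident fibroblast markers to 1600 to 2220, above it. The tendon and dense connective tissue list summed to 6.66 to 25.9 FPKM, with Thbs4 at 0.313 to 10.1 and Cilp at 2.39 to 11.5. ND-RHL library 3 had the lowest fibrotic fibroblast sum of the group (283) and the highest resident fibroblast sum (2220). Much of the lead in the resident sum was Inmt, at 829 FPKM against 452 to 526 in the other ND-RHL libraries. Library 3 also held the least Fmod (4.52) and the most Prelp (138) and Ogn (176). It did not hold the least of the other genes that were lower than in AE-PF: Bgn (187) was second highest there and Podn (9.50) second lowest, and library 4 held the least of both (149 and 9.17). The part of these markers in the changes of the 8 genes was not tested.

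The genes around the 8 members moved in different directions by list. Collagens were 10 lower and none higher of 11 tested (median log2 change -1.78), with Col1a1 at 93.8 ± 12.8, Col5a2 at 24.2 ± 3.75 and Col1a2 at 70.7 ± 10.4 FPKM in ND-RHL lung. Chondroitin and dermatan sulfate genes were 12 lower and 3 higher of 21 (median -0.23). Chsy3 fell to 0.696 ± 0.256 FPKM and Chst11, which sulfates chondroitin, from 12.6 ± 1.07 to 7.04 ± 0.648. Chst3, another chondroitin sulfotransferase, went the other way, from 5.06 ± 0.228 to 10.6 ± 1.25, above its saline level of 6.60 ± 1.03, and the further higher genes were B3gat3 and Chst7. Keratan sulfate genes were 3 higher (Chst1, Fut8 and B4galt4) and 2 lower (B4galt1 and Chst5) of 7.

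Proteases were 8 lower and 1 higher of 12 (median -0.90). Adamts4 fell to 1.32 ± 0.396 FPKM and Mmp14 to 24.3 ± 3.91, and Gzmb, the granzyme of cytotoxic lymphocytes that can cleave decorin, was the 1 higher gene, from 1.44 ± 0.592 to 9.96 ± 3.11. Receptors and ligands were 11 lower and 3 higher of 18 (median -0.38): Lrp1, the endocytic receptor that takes up decorin, fell from 72.9 ± 11.7 to 35.1 ± 1.77 FPKM, Tgfbr2 to 55.6 ± 5.30 and Ccn2 to 47.5 ± 2.93, and the higher genes were Met, Igf1r and Kdr. Heparan sulfate proteoglycans were 7 lower and none higher of 10 (median -0.38), led by Hspg2 (24.4 ± 1.56), Col18a1 (14.7 ± 1.98) and Gpc4 (12.3 ± 0.574). Vcan fell to 2.15 ± 0.594 FPKM and Bcan rose to 0.951 ± 0.231, and Acan did not pass (limma adjusted p = 0.38). Of the wider family, Ecm2 (8.98 ± 1.64) and Chad (13.6 ± 9.89) were higher than in AE-PF lung and Tsku (6.75 ± 0.897) was lower, and Omd (2.13 ± 1.53, limma adjusted p = 0.0555) and Podnl1 (1.17 ± 0.342, adjusted p = 0.887) did not pass.

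**Figure D3:**
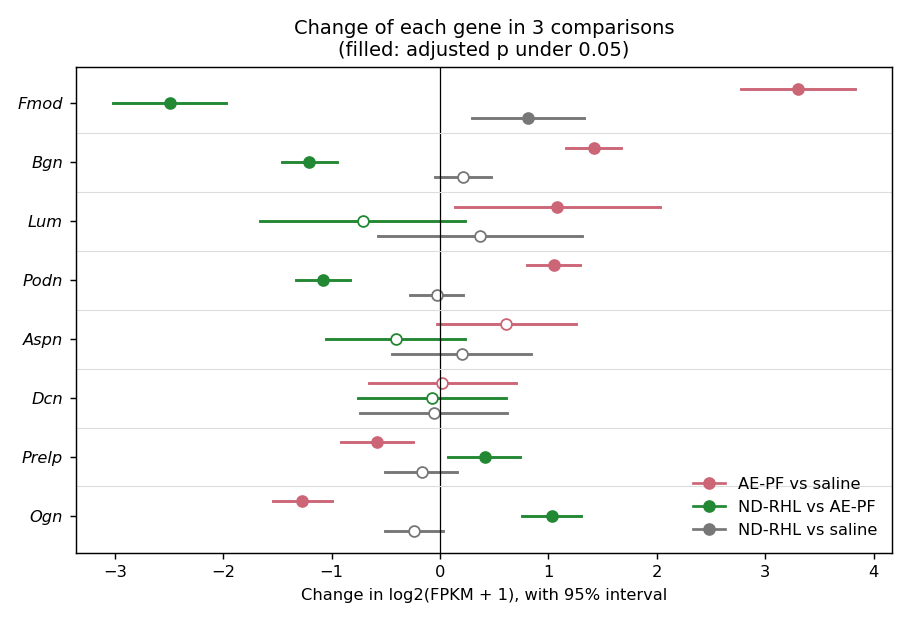
Log2 change of FPKM + 1 (horizontal axis) with its 95% interval for each of the 8 genes in 3 comparisons, with filled points where the limma adjusted p was under 0.05. Fmod has the largest change of the 8 genes in each comparison (3.30, -2.49 and 0.81), Dcn lies near 0 with wide intervals in all 3, and Fmod alone is filled in ND-RHL against saline. The comparisons share libraries.

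The third comparison, ND-RHL against saline, asked what still differed from control lung after treatment. Of the 8 genes, Fmod alone passed the test, 0 were lower (also 0 at an unadjusted p under 0.05 and 0 by limma-voom), and the ranges of the groups overlapped for all 8, whereas they did not overlap for 29.9% of all genes tested. Fmod was 1.75-fold higher in ND-RHL lung, with means of 7.72 ± 3.13 and 3.84 ± 1.23 FPKM (log2 change 0.81 ± 0.24 SE, 95% interval 0.29 to 1.33, limma adjusted p = 0.0326). ND-RHL libraries 1, 2 and 4 lay above all saline libraries and library 3 within the saline range. Over all genes 13.3% were called higher and 8.65% lower, and the median log2 change of the 8 genes was 0.09 against 0.03 for all genes. That split of 2011 higher and 1312 lower genes became 1474 and 1912 with quantile normalisation and 1671 and 1712 with limma-voom. The Fmod call was lost with only these groups in the fit (adjusted p = 0.0588), with no filter (0.073), when saline library 2, 3 or 4 or ND-RHL library 1 or 2 was left out (up to 0.0898), and without the 4 libraries rich in adipocyte and cartilage transcripts (1.07, adjusted p = 0.151).

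The other 7 genes did not pass, which does not show that they had returned to the saline level. The narrowest intervals were those of Podn (log2 change -0.03, 95% interval -0.28 to 0.21), Bgn (0.21, -0.05 to 0.47) and Ogn (-0.24, -0.51 to 0.03), with limma adjusted p of 0.862, 0.225 and 0.183. Prelp (-0.17, -0.51 to 0.16), Aspn (0.20, -0.44 to 0.84), Lum (0.37, -0.57 to 1.31) and Dcn (-0.06, -0.74 to 0.62) had wider ones, and for Lum a difference of more than 2-fold in the higher direction lay inside the interval. Within the 4 same-numbered pairs of saline and ND-RHL libraries, Bgn was higher in ND-RHL in 4 of 4 (from 159 to 183, 163 to 204, 160.0 to 187 and 139 to 149 FPKM), as was Fmod. Lum was higher in 3 of 4, Dcn and Aspn in 2, and Prelp, Ogn and Podn in 1. The labels do not state that equal numbers pair the samples, and the share of all genes with such counts was not worked out. With the replicate number as a block, the limma adjusted p was 0.14 for Bgn and 0.0209 for Fmod.

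Among the surrounding genes, Col3a1 (151 ± 19.8 FPKM) was the 1 collagen of 11 that stayed higher than in saline lung, and Col14a1 (15.2 ± 4.17, limma adjusted p = 0.155) and Col5a2 (adjusted p = 0.186) did not pass. Chst3, Chpf2 (6.50 ± 0.462) and Chst14 (10.1 ± 0.904 against 8.28 ± 0.644) were higher and Csgalnact1 was lower of 21 chondroitin and dermatan sulfate genes. Chst1 (9.69 ± 0.845) was lower, and B3gnt7 and B4galt1 did not pass (limma adjusted p = 0.19 and 0.303). Proteases were 4 higher, Gzmb, Mmp2 (95 ± 20.3 against 40.7 ± 6.56), Mmp12 and Mmp14, and 2 lower, Mmp9 (5.75 ± 1.21 against 11.5 ± 2.45) and Mmp3. Tgfbr1 (19.7 ± 1.73 against 15.0 ± 1.57) and Tgfbr2 were higher and Bmp2 (1.61 ± 0.138 against 2.72 ± 0.398) and Met were lower of 18 receptors and ligands. By limma 0 of 10 heparan sulfate proteoglycans passed, the smallest p being those of Sdc4, Sdc1 and Gpc3 (adjusted p = 0.0621, 0.076 and 0.0835), although 2 were higher and 1 lower at an unadjusted p under 0.05, and limma-voom called 1 lower. Bcan, Vcan and Acan did not pass (limma adjusted p = 0.288, 0.413 and 0.595). Of the wider family, Chad was lower (limma adjusted p = 0.0409), and Podnl1 (0.0816), Ecm2 (0.114), Omd (0.356) and Tsku (0.767) did not pass.

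The 8 genes together were highest in AE-PF lung, and their make-up there was unlike that in the other libraries (values given with no test of the sum or the shares). The 8 genes summed to 551 ± 17.4 FPKM in saline, 744 ± 64.8 in AE-PF and 550 ± 54.0 in ND-RHL lung (SD, n = 4), so that saline and ND-RHL had nearly the same mean sum. Bgn took 28.2% ± 1.76 of that sum in saline, 56.0% ± 3.06 in AE-PF and 33.0% ± 4.60 in ND-RHL lung. Ogn took 31.3% ± 1.79, 9.63% ± 1.53 and 26.7% ± 3.52 in the same order. Prelp took 23.8% ± 1.77, 12.1% ± 3.53 and 21.3% ± 3.31. Bgn made up 52.5% or more of the sum in each of the 4 AE-PF libraries and 39.5% or less in the other 8. Fmod went from 0.694% ± 0.200 in saline to 6.18% ± 0.286 in AE-PF lung and to 1.42% ± 0.617 in ND-RHL lung. Dcn held 10.2% ± 1.75, 7.62% ± 1.21 and 10.6% ± 4.86, and Lum, Aspn and Podn each held 1.67% to 3.20% in every group.

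**Figure D4:**
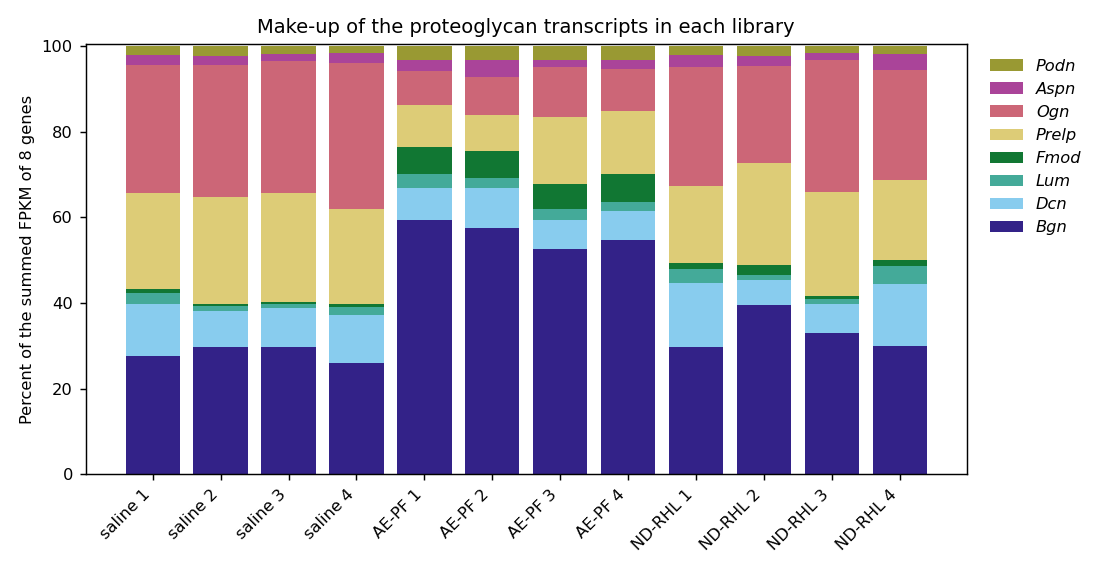
Percent of the summed FPKM of the 8 proteoglycan genes (vertical axis, 0 to 100) taken by each gene in each of the 12 libraries. Bgn fills 52.5% to 59.4% of the AE-PF bars and 26.0% to 39.5% of the others, and Ogn 8.1% to 11.6% of the AE-PF bars and 22.6% to 34% of the others.

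Ratios within a library do not depend on how libraries are scaled. Bgn/Dcn, set between the closest relatives, averaged 2.80 in saline (2.28 to 3.57), 7.41 in AE-PF (6.14 to 8.17) and 3.38 in ND-RHL lung (1.98 to 6.75) as geometric means. Fmod/Prelp, set between neighbours on chromosome 1, averaged 0.0284, 0.526 and 0.0626, a difference of 18.5-fold between AE-PF and saline lung and 8.40-fold between AE-PF and ND-RHL lung. Aspn/Ogn, the neighbours on chromosome 13, averaged 0.0669, 0.255 and 0.0917, and Lum/Dcn, the neighbours on chromosome 10, averaged 0.154, 0.345 and 0.212. The ratios of Dcn and Bgn to Col1a1, the main chain of type I collagen, were lower in each AE-PF library than in any other. Dcn/Col1a1 averaged 0.784 in saline, 0.113 in AE-PF and 0.570 in ND-RHL lung, and Bgn/Col1a1 averaged 2.20, 0.839 and 1.93. For all 6 ratios the AE-PF and saline libraries did not overlap, and the exact permutation test gave p = 0.0286, the smallest that 4 against 4 allows. Between ND-RHL and AE-PF lung 4 of the 6 did not overlap (the exceptions were Bgn/Dcn and Lum/Dcn, each at an exact p of 0.0571). Between ND-RHL and saline lung all overlapped. Of the 4 same-numbered pairs, Fmod/Prelp and Lum/Dcn were higher in ND-RHL in 4, and Dcn/Col1a1 was higher in 0. Aspn/Ogn was higher in 3, Bgn/Dcn in 2 and Bgn/Col1a1 in 1. Adjusted over the 18 exact permutation tests, p = 0.0286 became 0.0514, so no ratio passed the threshold. Because 0.0286 is the smallest p possible, a single ratio could not pass by its own size, and this outcome says little about any 1 ratio.

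Libraries of the same group also differed from each other in a patterned way. After each group's mean was subtracted, Dcn and Lum varied together over the 12 libraries (Pearson r = 0.88), as did Dcn and Aspn (0.77), Lum and Aspn (0.70), Bgn and Podn (0.75) and Fmod and Podn (0.66). Prelp ran opposite to Aspn (-0.93), Dcn (-0.69) and Lum (-0.64), whereas Bgn and Dcn showed little relation (-0.18). Dcn tracked the summed adipocyte (0.90), cardiac muscle (0.92), smooth muscle and pericyte (0.91) and cartilage (0.85) markers, and Lum tracked cartilage (0.88) and cardiac muscle (0.78). Prelp tracked resident fibroblast (0.94) and lung (0.91) markers, and Aspn ran opposite to both (-0.88 and -0.91). Prelp also ran opposite to squamous epithelium (-0.78) and skeletal muscle (-0.74) markers, and Aspn tracked them (0.72 and 0.66). The squamous libraries, AE-PF 2 and ND-RHL 4, held the least Prelp, the most Aspn and the lowest lung marker sums of their groups. The part of these libraries in the coefficients was not tested. Podn, Bgn and Aspn tracked the sum of fibrotic fibroblast markers (0.79, 0.73 and 0.72), made mostly of Col1a1 and Col3a1, and Prelp ran opposite to it (-0.65). These coefficients are descriptions over 12 libraries that share depth and tissue make-up, and they carry no test.

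**Figure D5:**
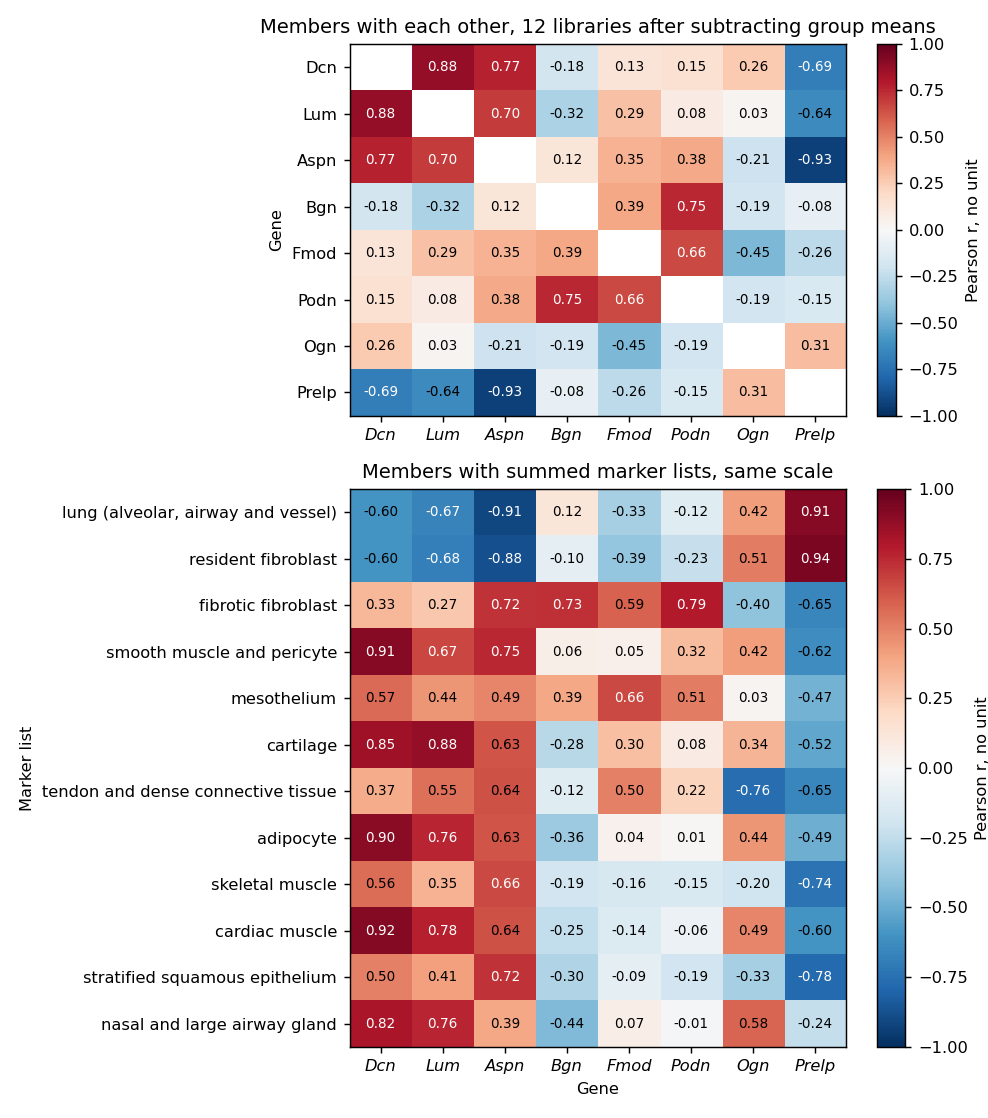
Pearson r over 12 libraries of log2(FPKM + 1), after subtracting group means, between the 8 genes (top) and between each gene and the summed FPKM of 12 marker lists (bottom), on a colour scale from -1 to 1. Dcn, Lum and Aspn form a block at 0.70 to 0.88, Prelp is negative with all 3, and Dcn reaches 0.90 with adipocyte and 0.92 with cardiac muscle markers.

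The genes most like each member over all 12 libraries were ranked by Pearson r of log2(FPKM + 1), with r within groups given after it. For Bgn they were Col4a2, a basement membrane collagen (0.993, 0.92 within groups), Mgp, matrix Gla protein (0.993, 0.88), and P3h1, a collagen prolyl hydroxylase (0.992, 0.86). Fmod was most like Plekho2 (0.993, 0.92), Slc35f6 (0.988, 0.77) and Cd63 (0.988, 0.82), and Podn most like Itgb5, an integrin chain (0.987, 0.83), Pmepa1 (0.985, 0.82) and Ror2 (0.984, 0.81). Ogn was most like Gsn, which encodes gelsolin (0.988, 0.90), Acaa1b (0.983, 0.91) and Gpam (0.982, 0.83), and Prelp most like Scarf1 (0.981, 0.97), Gstt1 (0.976, 0.96) and Osbpl5 (0.976, 0.95). For Dcn the highest values were lower, with Serpinf1, which encodes pigment epithelium-derived factor (0.939, 0.95), Gpt2 (0.925, 0.93) and Des, the muscle filament desmin (0.909, 0.92). Lum was most like Cpxm2 (0.960, 0.97), Sncg (0.933, 0.94) and Fabp7 (0.930, 0.91), and Aspn most like Ptn, which encodes pleiotrophin (0.977, 0.97), Klhl30 (0.944, 0.93) and Prg4, which encodes lubricin (0.936, 0.92). For Dcn, Lum, Aspn and Prelp the coefficients within groups were about as high as those over all libraries.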

How the data were processed

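Polyadenylated lung RNA of 12 samples, 4 per group, was sequenced on a DNBSEQ-G400 instrument, per the labels' protocols. The authors deposited 1 table of FPKM values for 35599 genes in 12 libraries. Tools listed in the submitters' processing notes were the aligner STAR 2.7.9a, Trim Galore 0.6.6, FastQC, Subread 2.0.1 with featureCounts, and DESeq2 1.30.1, with builds GRCm38 and mm10. The strand setting and the treatment of fragments matching several genes are not given in the sources used here, so counts of genes that overlap on opposite strands cannot be told apart. Only 731 of 34725 gene starts in the table equalled GRCm38 ones, so coordinates came from GENCODE M21 by gene identifier.

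From the FPKM, the fragments behind each value were worked out as whole numbers, within 1e-05 fragments, for 35599 genes (100%). In a gene of 1 kb, 3 fragments equal an FPKM of 0.138 to 0.186, a floor that covers counting error only. Log2(FPKM + 1) values of all 12 libraries entered 1 limma fit (limma 3.58.1, R 4.3.3, trend on the variance, 2-sided tests, 9 residual degrees of freedom) over the 15164 genes that reached FPKM 1 in 4 or more libraries, with Benjamini-Hochberg adjustment and a threshold of 0.05. Fold changes are on that scale, which understates changes of low genes. On simulated AE-PF and saline data of 14748 genes, 86 of 100 genes changed 2-fold were found by limma and 100 of 100 changed 4-fold, with 17 others called, and with no gene changed 0 of 14757 were called. The simulation gave every gene the same spread beyond counting error and changed few genes. Those shares are therefore not the power for widely spread members such as Lum, Dcn and Aspn. Ratios used an exact 2-sided permutation test over the 70 labelings, in Python 3.11.15 with scipy 1.17.1.

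The members, the 8 pathway lists and the 12 marker lists were chosen with earlier results of these data known. Named genes were the 8 members, the up to 3 genes of each pathway list with the smallest p in each comparison, all other family members, and the 3 genes most like each member over 12 libraries. Further genes are named beside small counts, and these, like the marker genes given with values, were chosen after their values were seen. Wisp1 was not matched by symbol. Alternatives were a pseudocount of 0.1, no filter, a minimum FPKM of 5, equal totals, quantile normalisation, limma-voom with TMM on the whole fragments, only the groups compared, a replicate block, and fits without single or doubted libraries.

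Whether equal replicate numbers pair samples was checked by the correlation of deviations from group means. For saline and ND-RHL libraries it was 0.40, 0.19, 0.11 and 0.17 for numbers 1 to 4, all over 0.1. Some libraries of different number correlated better than those of the same number, with 0.32 for saline 2 and ND-RHL 3 and 0.27 for saline 3 and ND-RHL 2. Others ran down to -0.42 (saline 3 and ND-RHL 1). The labels do not say what a number marks, so pairing was not established, and counts over same-numbered pairs are descriptions only. For same-numbered libraries of the other pairs of groups the correlation ran from -0.39 to 0.34. Promoter windows were taken from RefSeq (GRCm38.p6) by symbol.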

Additional observations from a re-analysis of the deposited data

Results flagged for a closer look

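Bgn in saline library 4 stood at 139 FPKM, apart from the other 3 saline libraries at 159 to 163. The gap to its nearest neighbour was 0.836 of the group's range, which made it 1 sample far from the others among 42 groups of 4 values examined, and chance alone flags about 1 in 20 such groups. Without that library the log2 change of Bgn between AE-PF and saline lung was 1.36 (limma adjusted p = 3.26e-05), against 1.42 with it.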

How the results depend on the processing

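With 4 libraries per group, Fmod, Bgn, Podn and Ogn kept their direction and call in AE-PF against saline and in ND-RHL against AE-PF under each alternative run, and no member reversed a called change. Of 288 fits of members that left out 1 library, 266 kept their side of the threshold, 21 lost it and 1 gained it, and of 240 other alternatives 224 kept it, 13 lost it and 3 gained it. Members called higher in ND-RHL against AE-PF numbered 1, not 2, with no filter, equal totals, limma-voom, only the groups compared, the replicate block and without saline and ND-RHL libraries 1 and 4, and in each case the gene lost was Prelp. Members higher in ND-RHL than in saline lung numbered 0 with no filter, only the groups compared and without saline and ND-RHL libraries 1 and 4 (Fmod). That last setting also gave 5 members lower in ND-RHL against AE-PF, and over all genes 2313 higher in that comparison and 61 higher and 104 lower in ND-RHL against saline, with 2 libraries left in those groups. The members added, Dcn and Lum, had their highest ND-RHL values in the libraries left out. A minimum FPKM of 5, which tested 9217 genes, gave 2896 genes lower in AE-PF than in saline and 2325 higher in ND-RHL against AE-PF, and equal totals gave 2359 for the latter. The replicate block changed no other member's call (3943 higher and 4528 lower genes in AE-PF against saline, 1766 and 1150 in ND-RHL against saline). The ratios were recomputed with libraries left out and with the block; in a comparison that lost a library, and with the block, the smallest exact p was 0.0571 to 0.333, so no ratio could pass and these settings say nothing on stability. Over the samples, 8 of 24 choices, each among the 4 libraries of another group, correlated best with their own number. Some such matches arise by chance, and the count does not establish pairing. Leaving out each library in turn gave 3643 to 4160 genes higher and 3923 to 4706 lower in AE-PF against saline, 2732 to 3774 and 2139 to 2717 in ND-RHL against AE-PF, and 1230 to 2451 and 802 to 1511 in ND-RHL against saline. Over the same fits, members numbered 3 to 4 higher and 2 to 2 lower, then 1 to 2 and 3 to 3, then 0 to 1 and 0 to 0. On the whole fragments, limma-voom called 4209 genes higher and 4406 lower in AE-PF against saline lung. The cause of these differences was not tested.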
